A study of Mus musculus with 8 samples.

Results

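The Krueppel-like factors described here are the 7 genes Klf2, Klf3, Klf4, Klf5, Klf6, Klf10 and Klf13, taken by name from 55540 genes measured in lung group 2 innate lymphoid cells (ILC2s). They are 7 of 17 Klf genes in the bulk table and 7 of 13 in the single-cell table. All 7 were measured in both tables and passed the filter on low values in every comparison. The genes were chosen by their names and by measured values of these data, levels by library, hashtag and cluster, and the sources do not record which of these counted. Their levels and differences are therefore given as a description, and each adjusted p is the output of a fit over all tested genes.

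Krueppel-like factors are transcription factors that bind GC-rich boxes and CACCC boxes through zinc fingers at their C-terminus, and the parts outside the fingers decide whether a member activates or represses. In lymphocytes the family is best known from T and B cells. There Klf2 keeps cells quiescent and drives the receptors that let them leave tissues, and the mRNA of several members is short-lived and induced early after stimulation.

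ILC2s are tissue lymphocytes without antigen receptors that answer the epithelial alarmin IL-33 with type 2 cytokines. All mice were wild type C57BL/6. For the bulk libraries, females received IL-33 through the nose on 3 consecutive days, with dopamine in 3 libraries and with its vehicle PBS in the other 3. Each bulk library was made from 2000 sorted ILC2s with the full-length Smart-seq2 chemistry. For the single cells, sorted ILC2s of males carried hashtag antibodies and were run as 1 droplet pool. The deposited cell table assigns hashtags 6, 7 and 8 to IL-33 plus dopamine, hashtags 3, 4 and 5 to IL-33, and hashtags 1 and 2 to PBS. The table does not say that the PBS hashtags had IL-33 as well, and the labels of the pool name IL-33 for the whole of it. Sex and chemistry thus cannot be told apart between the bulk and the single-cell data. No source says that a hashtag is 1 mouse, so p-values over hashtags measure the spread between these hashtags. All 14 ILC2 markers examined were above 0 in every group of both tables, and their summed level was 3776 to 5540 TPM with dopamine and 3323 to 5381 TPM with PBS in the bulk libraries.

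The 9076 cells held 1397576 to 9268932 unique molecular identifiers (UMIs, each standing for 1 captured RNA molecule) per hashtag, and no barcode was shared between hashtags. Bulk values are TPM, transcripts per 1000000, a level corrected for transcript length whose read depth is unknown. PBS library 2 stood apart in the bulk data, with 9822 genes at TPM of at least 1 against 10525 to 11745 in the other 5 libraries, and with the score farthest from 0 on the first principal component. In bulk RNA, fewer cells of a type and less RNA per cell cannot be told apart.

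The promoters of 3 members are shown because their genes carry the patterns described further on. Klf2 and Klf6 peaked in the same cluster of cells, and Klf4 was lower with IL-33 than with PBS. The sequences are from RefSeq on GRCm38.p6, written 5′ to 3′ on the strand of the gene, from 250 bases before to 50 bases after the start. They lie at chr8:72318812-72319111 on the plus strand for Klf2, at chr13:5861239-5861538 on the plus strand for Klf6, and at chr4:55532426-55532725 on the minus strand for Klf4. Capitals mark the GC box GGGCGG and the CACCC box on either strand, and in Klf2 also the MEF2 box, the binding site of the MEF2 factors.
Klf2: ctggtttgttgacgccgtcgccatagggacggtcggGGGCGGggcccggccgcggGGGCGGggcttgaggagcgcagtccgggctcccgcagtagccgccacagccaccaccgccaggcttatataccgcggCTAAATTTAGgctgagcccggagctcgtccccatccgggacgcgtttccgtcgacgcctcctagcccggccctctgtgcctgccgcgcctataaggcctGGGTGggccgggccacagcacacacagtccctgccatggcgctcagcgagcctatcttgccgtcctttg
Klf6: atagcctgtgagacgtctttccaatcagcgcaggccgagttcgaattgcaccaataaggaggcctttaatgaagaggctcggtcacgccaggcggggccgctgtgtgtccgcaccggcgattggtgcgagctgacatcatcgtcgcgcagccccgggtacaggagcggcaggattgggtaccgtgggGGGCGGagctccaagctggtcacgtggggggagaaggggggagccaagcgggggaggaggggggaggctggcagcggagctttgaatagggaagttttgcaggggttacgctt
Klf4: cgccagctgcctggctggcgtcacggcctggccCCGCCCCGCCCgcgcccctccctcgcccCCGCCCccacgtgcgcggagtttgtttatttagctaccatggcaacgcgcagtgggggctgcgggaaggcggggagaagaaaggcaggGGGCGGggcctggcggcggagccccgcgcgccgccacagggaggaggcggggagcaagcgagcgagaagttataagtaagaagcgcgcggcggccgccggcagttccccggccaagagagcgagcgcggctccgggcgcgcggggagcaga
The table held a promoter for 5 of the 7 members, and not for Klf5 or Klf10. The GC box stood in all 5 of these promoters, and in 35.7% of 32851 mouse promoters of the same length. Klf3 held 6 copies, of which 1 overlapped a CACCC box by its last base, Klf4 held 4, Klf13 held 3, Klf2 held 2 and Klf6 held 1. CACCC was found in Klf2, Klf3 and Klf13 among the members, and in 57.5% of all promoters. The MEF2 box was found in Klf2 alone among the 5 members, from base -118 to base -109 relative to the start, and in 3.19% of all promoters. The Klf6 promoter held 4 CCAAT boxes (CCAAT on either strand), a motif present in 37.4% of all promoters. None of the 5 held the full cAMP response element TGACGTCA (1.79% of all promoters) or the AP-1 site TGANTCA (7.81%). The shorter motif TGACG, the first bases of that full element, was found in Klf2, Klf3, Klf4 and Klf13 but not in Klf6. It was present in 20.8% of all promoters, and its part in the levels of these genes was not tested.

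The genes lie apart in the genome, on GRCm38 (mm10) with GENCODE M21 annotation. Klf2 is at chr8:72319033-72321656 and Klf6 at chr13:5861482-5870394, both on the plus strand. Klf3 is at chr5:64803388-64832901 and Klf5 at chr14:99298691-99315036, also on the plus strand. Klf4 is at chr4:55527143-55532466, Klf10 at chr15:38291463-38300706 and Klf13 at chr7:63886351-63938915, all 3 on the minus strand.

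The bulk comparison asked what dopamine changed in ILC2s of mice given IL-33. Klf2, Klf4, Klf6, Klf10 and Klf13 had higher TPM in all 3 dopamine libraries than in any PBS library, and Klf3 and Klf5 overlapped between the groups. None of the 7 passed limma's test at an adjusted p under 0.05, where 0.0356% of the 11222 tested genes did. At an unadjusted p under 0.05, 4 of the 7 were higher and 0 lower, as were 19.5% and 4.62% of all tested genes. Groups that did not overlap, with dopamine higher, were found for 23.5% of all tested genes. The median tested gene was itself 0.49 higher with dopamine on the log2(TPM + 1) scale, so each difference is also given relative to that median.

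Klf2, the quiescence and trafficking factor, had 27.0, 40.6 and 17.3 TPM in the dopamine libraries, against 7.34, 4.30 and 11.6 TPM in the PBS libraries. Every dopamine value lay above the highest PBS value. The log2 difference was 1.75 ± 0.50 (SE), or 1.26 relative to the median gene (limma adjusted p = 0.103). Klf4, which restrains proliferation in T cells and is best known as a pluripotency factor, had 33.8, 28.7 and 48.7 TPM with dopamine, against 24.4, 16.6 and 20.6 TPM with PBS. These groups did not overlap either, but the gap between them was small beside the spread of the dopamine libraries. The difference was 0.80 ± 0.36 (SE) on the log2 scale, or 0.31 relative to the median gene (limma adjusted p = 0.209).

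Klf6, an early-induced member first described as a tumour suppressor, was the most abundant in every library. It had 535, 528 and 533 TPM with dopamine, against 321, 241 and 364 TPM with PBS. The dopamine libraries were almost level, and the PBS libraries were all lower and more spread. The log2 difference was 0.80 ± 0.20 (SE), or 0.31 relative to the median gene (limma adjusted p = 0.0895). Klf6 made up 68.2% to 72.9% of the summed TPM of the 7 genes with dopamine and 73.5% to 77.8% with PBS. The sum itself was 735, 773 and 752 TPM with dopamine, against 436, 314 and 468 TPM with PBS.

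Klf10, named TGF-beta-inducible early gene for how it was found, showed the largest difference of the 7 on the log2 scale. It had 48.9, 68.7 and 58.9 TPM with dopamine, against 26.4, 3.97 and 10.2 TPM with PBS. PBS library 2, the library that stood apart, held the lowest value. The difference was 2.37 ± 0.56 (SE), or 1.87 relative to the median gene (limma adjusted p = 0.0832). Klf13, an activator of the chemokine gene Ccl5 in T cells, had 59.6, 74.8 and 59.2 TPM with dopamine, against 29.5, 27.8 and 38.0 TPM with PBS. The groups were well apart, with a log2 difference of 1.01 ± 0.30 (SE), or 0.51 relative to the median gene (limma adjusted p = 0.111).

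Klf3, a repressor that works through the CtBP proteins, had 21, 31.0 and 29.7 TPM with dopamine, against 24.0, 18.6 and 20.2 TPM with PBS. One dopamine library lay below the highest PBS library. Its log2 difference of 0.35 ± 0.36 (SE) was -0.14 relative to the median gene (limma adjusted p = 0.540), and with median-of-ratios scaling or quantile normalization its unadjusted sign turned as well, to -0.17 and -0.14. Klf5, a growth factor-responsive member known from epithelial progenitors, was the least abundant, with 8.82, 1.88 and 5.75 TPM with dopamine, against 3.93, 2.18 and 3.53 TPM with PBS. Dopamine library 2 held the lowest value of all 6, and the log2 difference was 0.48 ± 0.59 (SE), or -0.02 relative to the median gene (limma adjusted p = 0.626). It turned to -0.13 with quantile normalization. Leaving out single libraries gave 0.09 without dopamine library 1 and 0.98 without dopamine library 2, or -0.42 and 0.49 relative to the median gene.

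**Figure D1:**
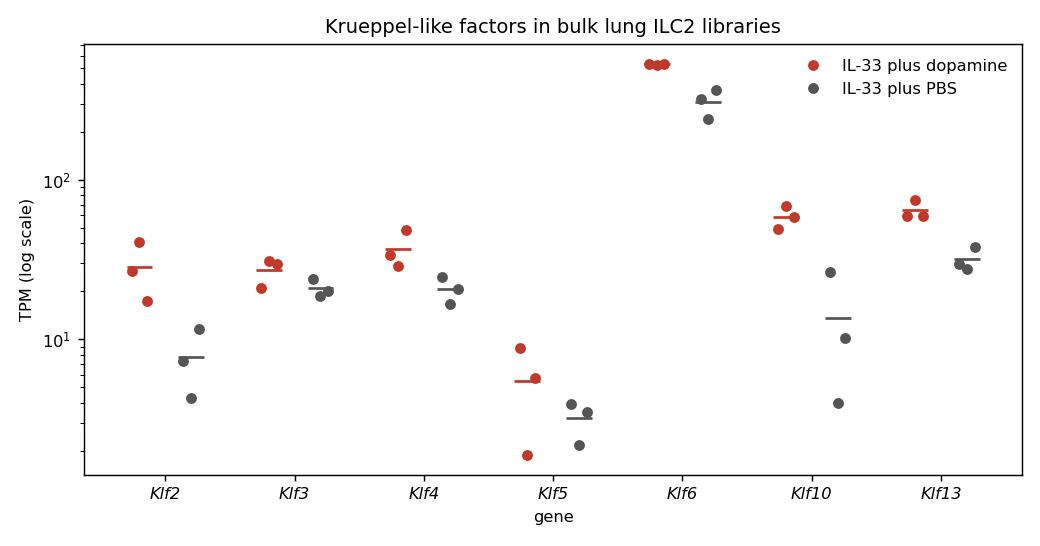
TPM of the 7 Krueppel-like factors in each bulk library on a log scale, with 3 IL-33 plus dopamine libraries (red) left of 3 IL-33 plus PBS libraries (grey) and a line at each mean. Klf2, Klf4, Klf6, Klf10 and Klf13 do not overlap between the groups, and Klf6 lies far above the rest at 241 to 535 TPM.

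Ordered by level in TPM, the dopamine libraries had Klf6 first, followed by Klf13, Klf10, Klf4, Klf2, Klf3 and Klf5. The ranges of Klf13 and Klf10, of Klf4 and Klf2, and of Klf2 and Klf3 overlapped, and the other neighbours did not. In the PBS libraries the order was Klf6, Klf13, Klf3, Klf4, Klf10, Klf2 and Klf5, and there Klf3, Klf4 and Klf10 each overlapped with the gene after it. Klf6 and Klf13 led and Klf5 closed the order in both groups.

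Leaving out a library cannot bring separated groups to overlap. Without PBS library 2, Klf3 and Klf5 overlapped as before, and 24.8% of all tested genes did not overlap with dopamine higher. The difference relative to the median gene was then 1.44 for Klf10, 1.12 for Klf2, 0.60 for Klf13, 0.35 for Klf4 and 0.32 for Klf6. Without PBS library 1, Klf6 (adjusted p = 0.0408) and Klf10 (adjusted p = 0.0144) passed limma's test, with differences of 0.17 and 2.32 relative to the median gene, and 1536 genes passed in all, against 4 with all 6 libraries. With array weights, which let limma down-weight variable libraries, Klf4, Klf6, Klf10 and Klf13 passed (adjusted p = 0.0476, 0.0210, 0.00749 and 0.0361), as did 2800 genes in all. Relative to the median gene their differences were then 0.34, 0.095, 1.90 and 0.27.

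Other transcripts moved with these differences, and their part in them was not tested. A list of 22 immediate early and dissociation-response genes, which answer stimulation as well as handling of cells, summed to 12140, 16473 and 18522 TPM with dopamine, against 6852, 3454 and 8035 TPM with PBS. All 22 had a higher mean on the log2(TPM + 1) scale, on which all such counts in the bulk libraries were made, as did 71.4% of all tested genes. Of the 22, 14 did not overlap (23.5% of all tested genes), and 0 passed limma's test, with 16 higher at an unadjusted p under 0.05 (19.5% of all tested genes). Among markers of other lymphocytes, the T cell list summed to 1433 to 1850 TPM with dopamine and 993 to 1438 TPM with PBS, with all 9 tested members higher in mean and Cd8a at 0 in the PBS libraries. Trbc1 and Trbc2 were its most abundant members, averaging 529 and 806 TPM with dopamine and 450 and 677 TPM with PBS. Cd3d averaged 108 ± 70.6 TPM with dopamine and 18.4 ± 24.2 TPM with PBS (SD, n = 3 each). In the same order Cd3e averaged 107 ± 62.8 and 18.2 ± 22.0 TPM, and Trac 116 ± 36.2 and 21.4 ± 15.6 TPM. In this list 0 genes passed limma's test. The list of NK cells and ILC1s summed to 458 to 930 TPM with dopamine and 61.8 to 412 TPM with PBS, with 7 of 8 tested members higher in mean. The ILC3 list summed to 110 to 241 TPM with dopamine and 18.6 to 102 TPM with PBS, with 5 of 5 members higher in mean. The B cell list summed to 45.1 to 76.1 TPM with dopamine and 26.8 to 53.0 TPM with PBS.

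Markers of non-lymphoid cells did not all follow the treatment. The list of macrophages and monocytes reached 528 TPM in dopamine library 2 and 1351 TPM in PBS library 1, and stayed at 4.26 to 31.9 TPM in the other 4 libraries. Endothelial cells express much Klf2 and Klf4, and their markers Cdh5, Emcn and Tie1 were at 0 in all 6 libraries, with the list summing to 23.8 to 35.9 TPM with dopamine and 8.71 to 31.4 TPM with PBS. Most of each sum was the single gene Pecam1, with 28.0, 24.7 and 23.8 TPM with dopamine and 22.1, 8.78 and 7.33 TPM with PBS. The epithelial list summed to 27.2 to 30.2 TPM with dopamine and 10.3 to 16.4 TPM with PBS, with Sftpb and Krt8 at 0 in all 6 libraries. Of 5 fibroblast markers, 4 were at 0 in all 6 libraries.

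Genes that act with the family were examined as 4 lists, and none of their members passed limma's test. At an unadjusted p under 0.05, 2 of 5 trafficking genes, 7 of 8 TGF-beta genes, 1 of 10 inducers and 3 of 9 partners were higher, and 0 were lower, against 19.5% and 4.62% of all tested genes. Of 5 trafficking genes that KLF2 controls in T cells, the 2 best expressed had group means closer than their SDs. Itgb7, an integrin chain for homing to mucosa, averaged 461 ± 74.6 TPM with dopamine and 435 ± 108 TPM with PBS (SD, n = 3 each), and Ccr7, the lymph node homing receptor, 139 ± 43.7 TPM and 142 ± 23.6 TPM. S1pr1, the receptor for exit along sphingosine-1-phosphate, is named after its values were seen. S1pr1 had 82.9, 135 and 84.2 TPM with dopamine, against 24.0, 4.44 and 27.0 TPM with PBS, a log2 difference of 2.17 ± 0.58 (SE) relative to the median gene (limma adjusted p = 0.0832). The median of the 5 was -0.08 relative to all tested genes.

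Of all tested genes, 71.4% had a higher log2 mean with dopamine and 23.5% did not overlap with dopamine higher, the shares beside which the list counts stand. Of 9 TGF-beta pathway genes, 8 were tested, 8 had a higher log2 mean with dopamine and 6 did not overlap. Their median was 0.92 above the median gene on the log2 scale. Skil, a feedback inhibitor of SMAD signalling, averaged 74.5 ± 13.2 TPM with dopamine and 33.3 ± 19.9 TPM with PBS (SD, n = 3 each), and Smad2 averaged 30.4 ± 5.40 TPM and 13.5 ± 7.92 TPM. The list of kinases and factors that induce Klf2 (MEK5-ERK5-MEF2 and FOXO) had 9 of 10 members higher in log2 mean and 4 without overlap, with a median of 0.19 above the median gene. In it, Mef2d averaged 21.9 ± 13.1 TPM with dopamine and 5.53 ± 2.77 TPM with PBS, and Mapk7, which encodes ERK5, 11.6 ± 4.99 TPM and 7.56 ± 6.86 TPM (SD, n = 3 each). Of 9 tested cofactors and ligases of the family, 6 were higher in log2 mean and 3 did not overlap, with a median of 0.29 above the median gene. Hdac1 averaged 76.0 ± 8.83 TPM with dopamine and 67.8 ± 8.76 TPM with PBS, and Crebbp, a coactivator that acetylates histones, 28.9 ± 3.87 TPM and 11 ± 3.84 TPM (SD, n = 3 each). Crebbp did not overlap between the groups (limma adjusted p = 0.114).

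The single-cell comparison asked the same of dopamine and added the PBS hashtags. UMI counts were summed per hashtag and scaled to 1000000 (CPM), a scale on which levels of different genes were not compared. Between IL-33 plus dopamine and IL-33, none of the 7 passed edgeR's test, where 0.0284% of 10559 tested genes did. DESeq2 called 0 of the 7 as well, and at an unadjusted p under 0.05 edgeR had 3 higher and 0 lower, as had 4.81% and 4.66% of all tested genes. Those 3, Klf2, Klf4 and Klf5, did not overlap between the groups, with dopamine higher, as did 7.81% of all tested genes.

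Klf2 had 135, 82.2 and 94.6 CPM in hashtags 6, 7 and 8 with IL-33 plus dopamine, against 77.7, 81.7 and 71.1 CPM in hashtags 3, 4 and 5 with IL-33. Hashtag 7 lay just above the highest IL-33 hashtag and hashtag 6 stood far above the others. The log2 difference was 0.43 ± 0.14 (SE; edgeR adjusted p = 0.411), with a range of 0.23 to 0.58 when single hashtags were left out. Klf4 had 337, 329 and 374 CPM with IL-33 plus dopamine, against 265, 241 and 324 CPM with IL-33, a difference of 0.33 ± 0.11 (SE; edgeR adjusted p = 0.411), with a range of 0.24 to 0.46 when single hashtags were left out. When every hashtag contributed the same number of cells of each cluster, 788 cells in all per hashtag, the difference in Klf4 was 0.0027.

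Klf5 had 78.1, 75.8 and 108 CPM with IL-33 plus dopamine, against 67.2, 63.0 and 66.5 CPM with IL-33. The IL-33 hashtags lay close together and below all dopamine hashtags, with a log2 difference of 0.42 ± 0.14 (SE; edgeR adjusted p = 0.411), which was 0.24 with the same number of cells per cluster. Leaving out single hashtags gave 0.21 to 0.51, with the lowest value without hashtag 8. The other 4 overlapped. Klf6 had 407, 330 and 419 CPM with IL-33 plus dopamine, against 366, 342 and 418 CPM with IL-33 (0.04 ± 0.11 (SE) on the log2 scale), and its sign turned when hashtag 4 or 8 was left out. Klf10 had 28.7, 25.3 and 21.9 CPM with IL-33 plus dopamine, against 28.8, 31.1 and 28.5 CPM with IL-33. This difference of -0.21 ± 0.11 (SE; edgeR adjusted p = 0.551) had the opposite sign to that of the bulk libraries, and it rested on 1325 UMIs in all cells. Klf3 had 68.8 to 78.1 CPM with IL-33 plus dopamine and 64.8 to 71.0 CPM with IL-33 (0.12 ± 0.09 (SE), log2), and Klf13 had 155 to 176 CPM and 169 to 201 CPM (-0.10 ± 0.09 (SE), log2). The immediate early and dissociation list summed to 11158 to 15559 CPM with IL-33 plus dopamine and 11651 to 12429 CPM with IL-33, and the T cell list to 1021 to 1060 CPM and 873 to 1101 CPM.

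**Figure D2:**
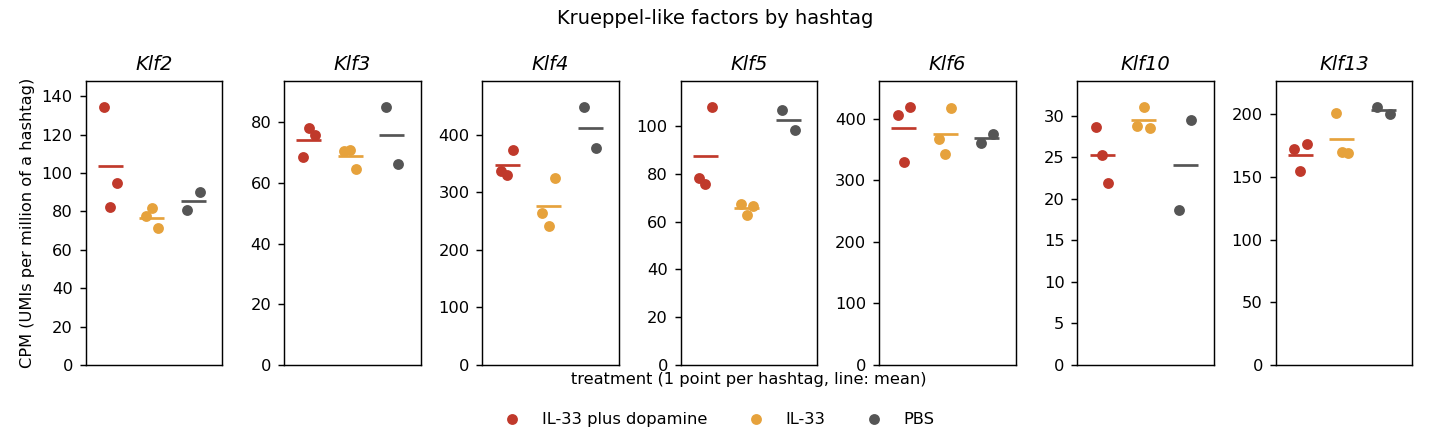
CPM of the 7 genes summed per hashtag, 1 panel per gene with its own axis from 0, for IL-33 plus dopamine (red, 3 hashtags), IL-33 (orange, 3 hashtags) and PBS (grey, 2 hashtags), with a line at each mean. Klf4 and Klf5 are lowest with IL-33, at 241 to 324 CPM and 63.0 to 67.2 CPM.

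Between IL-33 and PBS, Klf4 and Klf5 fell. They were 2 of 7 called lower and 0 were called higher, where 0.704% of 10506 tested genes were called and 0.352% were called lower. This comparison shares the IL-33 hashtags with the one before, so low values in them raise the dopamine difference and lower this one together. Klf4 had 265, 241 and 324 CPM in the IL-33 hashtags, against 449 and 376 CPM in the PBS hashtags. The groups did not overlap, with a log2 difference of -0.60 ± 0.12 (SE; edgeR adjusted p = 0.0298). Klf5 had 67.2, 63.0 and 66.5 CPM with IL-33, against 107 and 98.3 CPM with PBS, a difference of -0.67 ± 0.10 (SE; edgeR adjusted p = 0.00756). Without overlap and with IL-33 lower were 13.6% of all tested genes.

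Both calls depended on how the hashtags were handled. With all 8 hashtags in 1 fit, the adjusted p was 0.17 for Klf4 and 0.229 for Klf5, and 0 genes passed in all. With the same number of cells per cluster, 311 per hashtag, Klf4 differed by -0.18 (adjusted p = 0.698) and Klf5 by -0.51 (adjusted p = 0.106). Without hashtag 1 the adjusted p was 0.356 for Klf4 and 0.106 for Klf5, and without hashtag 3 it was 0.0803 for Klf4. Among cells without a UMI of 8 T cell markers, the adjusted p was 0.0906 for Klf4 and 0.0102 for Klf5, all by edgeR. DESeq2 called both genes lower, with an adjusted p of 0.00077 for Klf4 and 0.00032 for Klf5. Of 12 settings beside the main fit, DESeq2 included, 7 kept the call of Klf4 and 9 that of Klf5. The sign turned in 0 of them. The immediate early and dissociation list summed to 11651 to 12429 CPM with IL-33 and 13535 to 15355 CPM with PBS. Of its 22 members, 13 were lower and 4 of them called lower. Of all 10506 tested genes, 5280 were lower and 0.352% were called lower. The part of this list in the result was not tested.

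The remaining 5 genes gave no call. Klf2 had 77.7, 81.7 and 71.1 CPM with IL-33, against 80.9 and 89.9 CPM with PBS (-0.21 ± 0.11 (SE), log2), and the sign turned to 0.15 with the same number of cells per cluster. Klf13 had 201, 170 and 169 CPM with IL-33, against 206 and 201 CPM with PBS (-0.21 ± 0.10 (SE), log2). Klf10 had 28.8, 31.1 and 28.5 CPM with IL-33, against 18.6 and 29.5 CPM with PBS, and only hashtag 1 lay below the IL-33 hashtags. Klf3 and Klf6 differed by -0.13 ± 0.12 and -0.01 ± 0.09 (SE, log2), and the sign of both turned when single hashtags were left out.

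**Figure D3:**
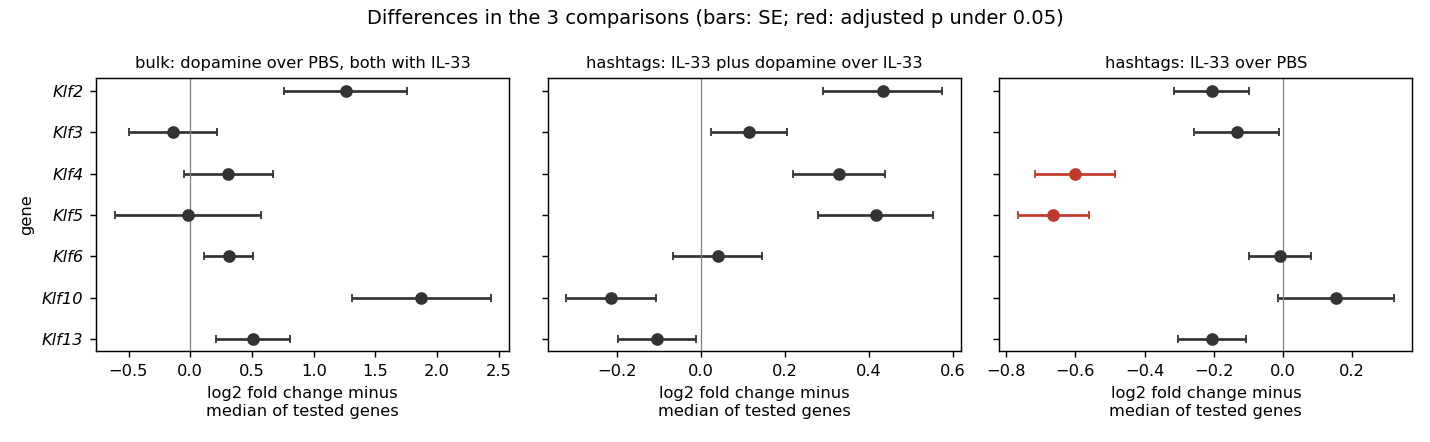
Log2 fold change minus the median of all tested genes, with its SE, for each gene (rows) in the 3 comparisons (panels with their own axes). Klf10 has 1.87 in bulk and -0.21 over hashtags with dopamine, and only Klf4 and Klf5 with IL-33 over PBS are red, the colour of an adjusted p under 0.05.

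The authors divided the cells into 6 numbered clusters from the same genes, so differences between clusters are a description. Klf2 was concentrated in cluster 4, with a mean of 280 CPM (190 to 403 CPM over 8 hashtags) against 49.3 CPM in cluster 1. Cluster 4 was the highest for Klf2 in 8 of 8 hashtags. It held 37.4% of all Klf2 UMIs and 12.1% of all UMIs. Its leading genes by fold were the heat shock genes Hspa1a, Hspa1b and Dnajb1, then Txnip, with Klf2 in the fifth place. Hspa1a had 424 CPM there, against 10.8 to 42.5 CPM in the other clusters.

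Klf6 was also highest in cluster 4, at 615 CPM against 307 CPM in cluster 0, and in 7 of 8 hashtags no other cluster was higher. Klf10 had 38.1 CPM in cluster 4 and 16.2 CPM in cluster 3. Klf3 and Klf13 varied least, by 1.79-fold and 1.40-fold between the highest and the lowest cluster.

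Klf4 and Klf5 shared another pattern. Klf4 had 652 CPM in cluster 3 (520 to 763 CPM over hashtags), 476 CPM in cluster 2 and 85.8 CPM in cluster 1. Klf5 had 139 CPM in cluster 3, 113 CPM in cluster 2 and 42.2 CPM in cluster 1. Cluster 3 was the highest for both genes in 8 of 8 hashtags. Cluster 3 led with Tnfrsf9 and the type 2 cytokine genes Il5 and Il13, and cluster 2 with Maff, Bmp2, Hes1, Atf3 and Nr4a1, of which 3 belong to the immediate early list. That list summed to 18531 CPM in cluster 2, 16670 CPM in cluster 4, 15822 CPM in cluster 3, 12956 CPM in cluster 5, 9856 CPM in cluster 0 and 6760 CPM in cluster 1. Its part in the cluster patterns of the family was not tested.

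**Figure D4:**
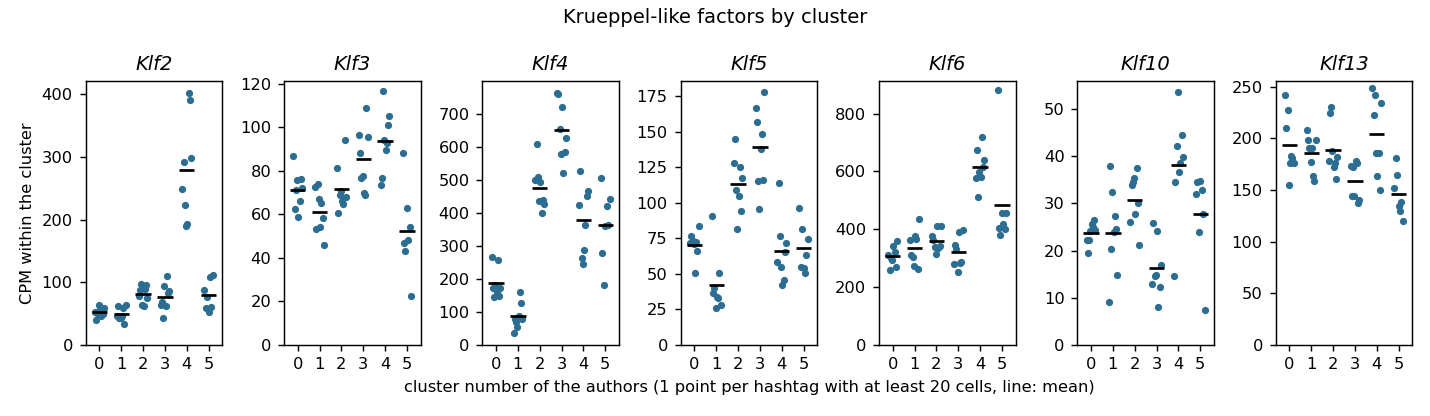
CPM of each gene within the 6 clusters of the authors, 1 point per hashtag with at least 20 cells and a line at each mean, 1 panel per gene with its own axis from 0. Klf2 reaches 190 to 403 CPM in cluster 4, and Klf4 and Klf5 peak in cluster 3.

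Across 47 sums of hashtag by cluster, Klf2 and Klf6 had a Pearson r of 0.746 and Klf4 and Klf5 of 0.715, the highest of the 21 pairs. The points share libraries and depth, and r is a description. Among 2507 genes with a mean of at least 50 CPM, those most like Klf2 were Dnajb1 (r = 0.835), Rhob (0.780) and Hspa1b (0.765). Hspa1b (0.785), Klf2 and Rhob (0.742) were most like Klf6. Ier5, Ddx3x and Gem were most like Klf4, with r from 0.886 to 0.887, and Ythdc1, Cebpb and Irf2bp2 most like Klf5, with r from 0.863 to 0.875. The best matches were weaker for Klf13 (Zcchc10, 0.705, then Gimap3 and Klf9) and Klf3 (Itprid2, 0.710, then Ly6a and Aak1).

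The mean shares of the clusters differed between treatments, unevenly over hashtags. On average, cluster 1 made up 16.3% of cells with IL-33 plus dopamine, 27.1% with IL-33 and 15.8% with PBS. Its ranges over hashtags were 11.7% to 21.6%, 26.2% to 27.8% and 8.36% to 23.3%. Cluster 3 made up 16.2%, 9.92% and 16% in the same groups. Its ranges of 11.4% to 20.1%, 7.74% to 11.9% and 11.4% to 20.6% overlapped. Cluster 5 made up 7.56% (1.76% to 14.2%), 14.2% (8.88% to 22.0%) and 2.82% (2.57% to 3.07%). A fold was also computed from the share of each hashtag's UMIs in each cluster, with each gene kept at its mean level there. For IL-33 plus dopamine over IL-33, these UMI shares alone gave Klf4 a fold of 1.12, where 1.25 was measured. For Klf5 the shares gave 1.14 and 1.33 was measured, and for Klf2 they gave 0.965 and 1.35 was measured. For IL-33 over PBS the shares gave 0.897 for Klf4, where 0.670 was measured, and 0.858 for Klf5, where 0.640 was measured.

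Within clusters, the dopamine difference in Klf2 was largest in cluster 4. There it had 403, 391 and 298 CPM with IL-33 plus dopamine, against 223, 190 and 193 CPM with IL-33, while PBS hashtags had 249 and 292 CPM. All dopamine hashtags were above all IL-33 hashtags in that cluster, as was the case for 6.27% of the tested genes, and in the other 5 clusters the groups overlapped. Klf4 was higher without overlap in clusters 4 and 5, by 1.61-fold and 1.5-fold (6.27% and 7.03% of tested genes), and its fold was 1.74 in cluster 1, 0.886 in cluster 3 and 0.879 in cluster 2, with overlap. Klf6 was likewise higher without overlap in cluster 4, with 616 to 718 CPM under IL-33 plus dopamine and 511 to 596 CPM under IL-33.

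For IL-33 over PBS, Klf5 was lower in mean in all 6 clusters (in cluster 5 with 1 PBS hashtag) and without overlap in clusters 2 and 3, by folds of 0.720 and 0.719 (11.7% and 11.2% of tested genes). Klf4 was lower in 5 of 6 clusters and without overlap in cluster 3 (0.856) and cluster 4 (0.556, where 11.2% of tested genes were lower likewise). Klf3 was higher without overlap in cluster 4 (17.7% of tested genes) and lower without overlap in cluster 3 (11.2%). Also without overlap in cluster 4, Klf10 was higher by a fold of 1.79 and Klf2 was lower by a fold of 0.746. Klf13 in cluster 1 had 177 to 190 CPM with IL-33 and 198 to 208 CPM with PBS, a fold of 0.915. No share of tested genes is at hand for that cluster, so nothing is read from this separation. Cluster 1, in which Klf4 is least abundant, had 52.8 to 86.4 CPM with IL-33 and 36.2 to 78.7 CPM with PBS. Cluster 5 of hashtag 1 had 8 cells and gave no value.

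**Figure D5:**
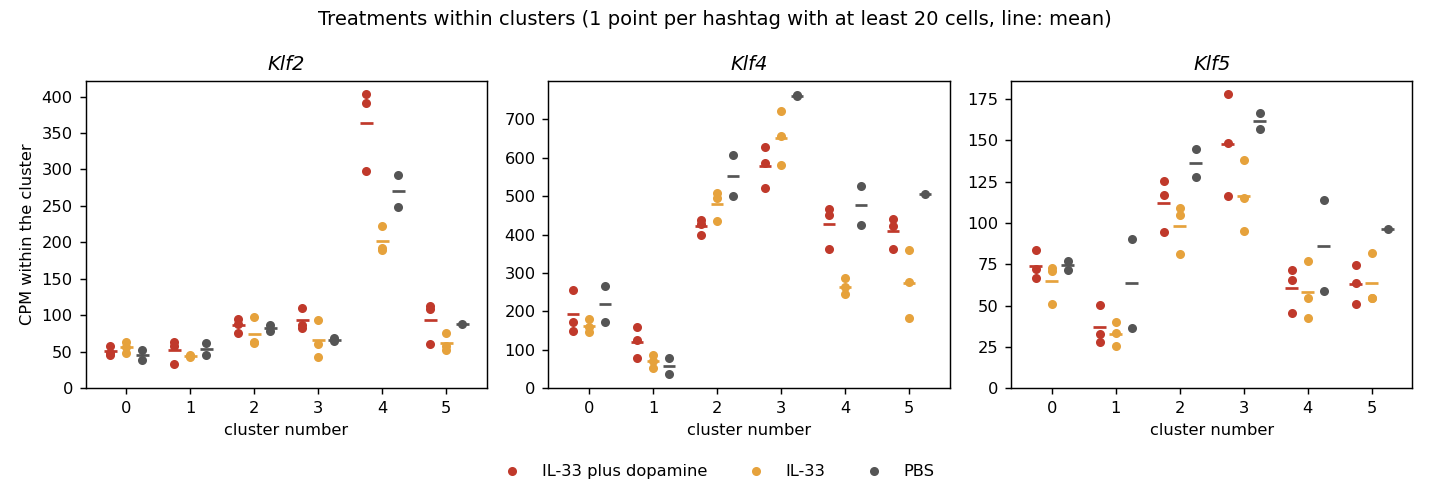
CPM of Klf2, Klf4 and Klf5 within each cluster for IL-33 plus dopamine (red), IL-33 (orange) and PBS (grey), 1 point per hashtag with at least 20 cells and a line at each mean. In cluster 4 the 3 dopamine hashtags have 298 to 403 CPM of Klf2, all above the IL-33 hashtags at 190 to 223 CPM.

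Few cells carried much of the Klf2 signal. A UMI of Klf2 was found in 24.3% of cells, but the 57 cells with at least 10 UMIs held 21.4% of its UMIs, and 43 of these cells were in cluster 4. Hashtag 6 held 22 of the 57, hashtags 7 and 8 held 8 and 6, hashtags 3, 4 and 5 held 4, 6 and 5, and hashtags 1 and 2 held 3 each. The hashtags differ in size, and as a share of their cells this was 1.76%, 0.668% and 0.407% for hashtags 6, 7 and 8. It was 0.269%, 0.549% and 0.330% for hashtags 3, 4 and 5, and 0.965% and 0.401% for hashtags 1 and 2. Without the cells with at least 10 UMIs, Klf2 had 79.7, 59.3 and 82.7 CPM with IL-33 plus dopamine. With IL-33 it had 69.1, 70.5 and 62.4 CPM, and the groups overlapped. The cut of 10 UMIs was chosen after the values were seen. It picks cells by Klf2 itself, so their removal lowers Klf2 by construction, and no conclusion is drawn from the overlap. By comparison, Klf6 had a UMI in 64.8% of cells, Klf13 in 55.7%, Klf4 in 48.9%, Klf3 in 26.4%, Klf5 in 24.3% and Klf10 in 12%. Lyz2, a myeloid gene that ILC2s should lack, had a UMI in 0.253% of cells at the same depth. With every cell thinned to 1800 UMIs, Klf4 was found in 53.5% of cells of cluster 3 and 12.2% of cluster 1, and Klf2 in 23.8% of cluster 4 and 8.12% of cluster 1.

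In the same hashtags the lists of genes that act with the family gave 0 calls by edgeR and 0 by DESeq2 in either comparison. For IL-33 over PBS, DESeq2 gave an adjusted p to only 1 trafficking gene, 3 inducers, 4 partners and 7 TGF-beta genes. At an unadjusted p under 0.05, the TGF-beta list had 1 higher and 0 lower of 9 with dopamine, the trafficking list 0 and 1 of 5, and the other 2 lists none, where 4.81% of all tested genes were higher and 4.66% lower. With IL-33 over PBS, the TGF-beta list and the partners had 1 higher and 1 lower each, the inducers 0 higher and 2 lower, and the trafficking list none, where 6.56% of all tested genes were higher and 6.87% lower. S1pr1 had 6.00, 8.87 and 7.10 CPM with IL-33 plus dopamine, against 7.44, 4.80 and 5.70 CPM with IL-33, and the hashtags overlapped. Skil had 290, 373 and 352 CPM with IL-33 plus dopamine, against 294, 292 and 286 CPM with IL-33.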

How the data were processed

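The members, the gene lists and the tests were chosen with earlier results of these data known. Per the submitters' processing notes, cutadapt 2.10, STAR 2.7.5c, RSEM 1.3.3, Cell Ranger 6.1.1, Seurat 4.0.2 and the build mm10 were used by the authors, without settings. The deposited bulk values are TPM scaled by the authors to 1000000 per library, and the deposited droplet values are UMI counts of 15083 genes in 9076 cells with the hashtag, treatment and cluster of each cell. The percent of mitochondrial UMIs was computed by the authors, as deposited, and is at most 7.50%. No source used here states how doublets were handled, and none were called.

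Bulk genes reaching 1 TPM in 3 or more of 6 libraries were tested on log2(TPM + 1) with limma 3.58.1 in R 4.3.3. UMI counts summed per hashtag were tested with edgeR 4.0.16 (TMM, quasi-likelihood, filterByExpr), with DESeq2 1.42.0 as an alternative. A gene passed at a Benjamini-Hochberg adjusted p under 0.05 over all tested genes. Fold changes are dopamine over its control, or IL-33 over PBS. The fits were tested on simulated data first. The members are always named, other Klf and Sp genes from a mean of 5 TPM or 20 CPM in a group, and members of pathway lists by calls or, without calls, the 2 best expressed. For likeness, Pearson r of log2(CPM + 1) was taken over hashtag-by-cluster sums of at least 20 cells. Motifs were searched on both strands of 300 bases per gene. The deposited embedding coordinates were not used.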

Additional observations from a re-analysis of the deposited data

Results flagged for a closer look

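Klf3 moved in opposite directions in 2 clusters with every hashtag, which among the members was seen for Klf3 alone. In cluster 4 it was higher in all IL-33 hashtags than in both PBS hashtags, with 89.6 to 117 CPM under IL-33 and 73.2 to 76.7 CPM under PBS, a fold of 1.34, where 17.7% of all tested genes were higher without overlap. In cluster 3 it was lower in all IL-33 hashtags, with 70.0 to 77.5 CPM under IL-33 and 88.1 to 96.2 CPM under PBS, a fold of 0.811, where 11.2% of all tested genes were lower without overlap. The difference between the clusters was not tested.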

How the results depend on the processing

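The bulk comparison called 4 genes by limma, all higher with dopamine, and with median-of-ratios scaling it called 2 higher and 2 lower. It called 2 with a pseudocount of 5, 0 without a filter, 2 with a mean TPM of at least 5, 21 with quantile normalization (10 higher, 11 lower) and 2800 with array weights. Leaving out single libraries gave 0 to 1536 genes: 1536 without PBS library 1, 0 without PBS library 2, 90 without PBS library 3 and 1 without dopamine library 2. With the replicate number as a block 15 genes passed. No source says that equal numbers pair the libraries. The correlations of equally numbered deviations were 0.0186, -0.0710 and -0.00177, which with so few libraries cannot exclude a pairing. No call of a member changed under the block.

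For IL-33 plus dopamine against IL-33, edgeR called 3 genes, DESeq2 27, and edgeR 9 among cells between the 10th and 90th percentile of UMIs. Leaving out single hashtags gave 1 to 16, with 1 without hashtag 3 or 4, 7 without hashtag 6 and 16 without hashtag 7. For IL-33 against PBS edgeR called 74 genes, DESeq2 119, edgeR 322 without a filter, 34 between the UMI percentiles and 0 with all 8 hashtags in 1 fit. Leaving out single hashtags gave 5 to 124, with 5 without hashtag 1, 40 without hashtag 3 and 124 without hashtag 4. Alternatives chosen after seeing the data were cells without T cell marker UMIs (5 genes for dopamine, 48 for IL-33) and the same cells per cluster in every hashtag (10 and 14), which also used fewer cells.

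The signs that turned, in log2 units, were those of Klf3 in bulk (-0.17 with median-of-ratios scaling, -0.14 with quantile normalization), Klf5 in bulk (-0.13 with quantile normalization), and for IL-33 over PBS Klf2 (0.15 with the same cells per cluster) and Klf6 (0.016 without a filter). Leaving out single hashtags took Klf6 through -0.053 to 0.144 for dopamine, and for IL-33 over PBS Klf3 through -0.345 to 0.020, Klf6 through -0.094 to 0.053 and Klf10 through -0.036 to 0.622. All of these lay below the test's threshold, and the cause was not tested. The other members kept their sign under all settings run. The read depth of the bulk libraries is unknown. Per hashtag, 26 to 267 UMIs of Klf10 and 113 to 896 UMIs of Klf2 limit what could be seen of these genes.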

Other observations

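Of the other 10 Klf genes of the bulk table, 5 were tested and 0 passed limma's test (1 at an unadjusted p under 0.05). Klf7 averaged 21.5 ± 3.93 TPM with dopamine and 24.2 ± 10.3 TPM with PBS, and Klf11, a close relative of Klf10, 14.4 ± 6.78 TPM with dopamine and 4.84 ± 3.66 TPM with PBS (SD, n = 3 each). Klf12 averaged 8.20 ± 6.67 TPM with dopamine and 3.32 ± 1.87 TPM with PBS, and Klf16 5.13 ± 4.90 TPM with dopamine and 3.67 ± 1.12 TPM with PBS. Klf9 had 3.44 ± 1.71 TPM with dopamine and 1.83 ± 0.98 TPM with PBS, but in single cells it had 64.9 to 105 CPM with IL-33 plus dopamine, 82.3 to 103 CPM with IL-33 and 110 to 130 CPM with PBS. There Klf7 averaged 84.6 ± 9.13 CPM with IL-33 plus dopamine, 87.3 ± 8.89 CPM with IL-33 and 75.5 ± 13.7 CPM with PBS (SD). Klf1, Klf14, Klf15 and Klf17 were at 0 in all 6 bulk libraries.

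The Sp genes bind the same GC boxes. Of 4 tested in bulk, 4 had a higher log2 mean with dopamine, as had 71.4% of all tested genes. Without overlap and with dopamine higher were 3 of them, and 23.5% of all tested genes. Sp3 averaged 17.7 ± 1.06 TPM with dopamine and 8.26 ± 6.77 TPM with PBS, Sp4 15.3 ± 2.76 TPM with dopamine and 10.9 ± 5.22 TPM with PBS, and Sp2 8.17 ± 0.68 TPM with dopamine and 2.30 ± 1.01 TPM with PBS (SD, n = 3 each). Sp1 averaged 29.3 ± 3.74 CPM with IL-33 plus dopamine (n = 3), 32.2 ± 3.52 CPM with IL-33 (n = 3) and 28.0 ± 3.86 CPM with PBS (n = 2). In the same order, Sp3 averaged 53.6 ± 6.36, 57.1 ± 1.41 and 63.4 ± 14.6 CPM, and Sp4 30.2 ± 2.62, 23.9 ± 0.74 and 29.0 ± 0.53 CPM. No other Klf gene or Sp gene passed edgeR's test in either single-cell comparison. DESeq2 called 0 of the 4 other Klf genes and 5 Sp genes to which it gave an adjusted p for IL-33 plus dopamine over IL-33, and 0 of 2 and 1 for IL-33 over PBS. At an unadjusted p under 0.05 by edgeR, the 4 other Klf genes tested had 0 higher and 1 lower (Klf11) with dopamine. The 5 Sp genes tested had 1 higher (Sp4) and 0 lower, where 4.81% of all tested genes were higher and 4.66% lower. With IL-33 over PBS, each of the 2 lists had 0 higher and 1 lower (Klf9 and Sp4), where 6.56% of all tested genes were higher and 6.87% lower.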
